A study of Mus musculus with 18 samples.

Results

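Metallothioneins are small, cysteine-rich proteins that bind zinc and copper, and zinc transporters move the metal across membranes. The genes described here are 10: the metallothioneins Mt1, Mt2 and Mt4, their zinc-sensing activator Mtf1, the zinc exporter Slc30a1 (ZnT1) and the importers Slc39a1, Slc39a4, Slc39a6, Slc39a10 and Slc39a14 (ZIP1, ZIP4, ZIP6, ZIP10 and ZIP14). They were chosen by gene name and role from 56246 genes in the count table. Enough reads for a test were found for 9 of them, among 18910 genes tested, and Slc30a1 was the exception.

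The study sequenced polyA RNA of dorsal epidermis, taken from male mice aged 10 weeks, in 18 libraries. Its subject was osteopontin (OPN), the product of Spp1, an integrin-binding phosphoprotein that cells secrete. Mice were WT, OPN-null (OPN KO in the labels) or K14-OPN. The last lacked their own OPN and carried a transgene under the promoter of keratin 14, which is active in basal keratinocytes. Irradiated mice received UVB once, at 180 mJ/cm2, 48 h after shaving, and skin was taken 24 h later. Shaving, with the same 48 h, is recorded for the unirradiated mice too. Unirradiated groups (noTx in the labels) held 2 libraries for WT, 3 for OPN-null and 3 for K14-OPN, and irradiated groups held 3, 4 and 3. The labels give no strain and do not tie each library to an animal, so the spread behind the p-values may be technical in part. A library is named by its genotype and the number in its label. Epidermis here can hold hair follicle and dermal cells, and in bulk RNA fewer cells of a type and less RNA per cell cannot be told apart.

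As background, free zinc in a cell is sensed by MTF1, which binds metal response elements in the promoters of Mt1, Mt2 and Slc30a1. Mt1 and Mt2 are expressed in most tissues and are also raised by glucocorticoids and by inflammatory and oxidative stress. Mt4 is the member of the family known from differentiating cells of stratified squamous epithelium. ZIP proteins raise cytosolic zinc by import from outside the cell or from organelles, and ZnT proteins lower it.

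The metallothionein genes lie on the plus strand of chromosome 8 in the build GRCm38. Mt1 (ENSMUSG00000031765.8) spans 94179082 to 94180327, Mt2 (ENSMUSG00000031762.7) spans 94172664 to 94173568, and Mt4 (ENSMUSG00000031757.7) spans 94137197 to 94139031. Their upstream sequences are shown because these 3 neighbouring genes are compared throughout, and metal response elements are known sites of MTF1. Each is the 250 bases before the RefSeq start, 5′ to 3′ on the plus strand of GRCm38.p6, at chr8:94178839-94179088, chr8:94172368-94172617 and chr8:94136954-94137203. Capitals mark matches to the metal response element core, searched as TGCACNC and TGCGCNC on both strands.
Mt1: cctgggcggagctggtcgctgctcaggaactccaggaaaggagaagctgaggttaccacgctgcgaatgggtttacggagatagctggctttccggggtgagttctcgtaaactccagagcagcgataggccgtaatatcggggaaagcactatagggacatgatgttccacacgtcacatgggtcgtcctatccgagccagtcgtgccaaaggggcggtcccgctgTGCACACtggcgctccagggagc
Mt2: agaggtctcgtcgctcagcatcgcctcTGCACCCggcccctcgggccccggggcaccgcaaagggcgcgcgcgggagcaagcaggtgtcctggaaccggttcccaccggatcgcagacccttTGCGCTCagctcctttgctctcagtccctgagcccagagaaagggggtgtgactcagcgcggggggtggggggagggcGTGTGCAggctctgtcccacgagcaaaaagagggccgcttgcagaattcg
Mt4: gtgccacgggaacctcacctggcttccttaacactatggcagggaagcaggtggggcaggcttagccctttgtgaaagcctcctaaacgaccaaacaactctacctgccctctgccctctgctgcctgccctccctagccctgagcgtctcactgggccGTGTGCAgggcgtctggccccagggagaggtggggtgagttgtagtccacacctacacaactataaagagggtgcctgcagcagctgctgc
The Mt2 sequence held 3 matches, which began 223, 128 and 50 bases before the start, the last on the minus strand. The Mt1 sequence held 1, which began 23 bases before the start. The Mt4 sequence held 1, on the minus strand at 91 bases. Of 32851 RefSeq sequences of this length, 21.4% held at least 1 match and 1.26% held 3 or more. The antioxidant response element core, searched as TGACNNNGC, matched once in the Mt2 sequence, at 79 bases, and in neither of the other metallothioneins. It was found in 10.2% of all sequences. Of the other members with an entry, Slc30a1 held 1 match of each kind, Slc39a1 held 1 of the antioxidant kind, and Mtf1 and both Slc39a10 entries held neither. These matches are letters in a window and were not tested for binding. Bases outside the windows were not searched, so the counts do not give the number of elements of a gene or rank the genes.

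Libraries held 3696865 to 26068614 reads counted to genes. Levels are given as CPM, which is counts scaled to a fixed total, with library sizes adjusted by TMM, a normalisation that discounts a few very abundant genes. Spp1 was at 0 to 7.57 CPM in OPN-null libraries and at 34.5 to 758 CPM in K14-OPN libraries. In WT it was at 45.2 and 2.53 CPM in WT 10 and 11 without UVB and at 272, 385 and 13.2 CPM in WT 6, 7 and 8 after it. The unirradiated library labelled WT 11 thus lay within the range of the OPN-null libraries, so Spp1 does not check its label. Without it WT 10 is the only unirradiated WT library, and the averaged rise of Slc39a14, described below, was smaller. In each group 1 library was rich in Rn7sk (7SK RNA) and poor in the transcript counted as Lars2, and the other 12 libraries were the reverse. These 6 are called 7SK-rich, and the others Lars2-rich. The 7SK-rich libraries were WT 11, OPN-null 10 and K14-OPN 2 without UVB, and WT 8, OPN-null 16 and K14-OPN 1 after it. The labels do not mention this difference. Every marker of basal and of suprabasal keratinocytes in the lists used was detected in every library. Without UVB, WT 10 and K14-OPN 11 stood apart with 99700 and 114200 CPM summed over 11 hair shaft genes, against 28.1 to 338 CPM in the other 6. OPN-null 9 stood apart in having the fewest genes with a count. Unirradiated K14-OPN 1 had 9185 CPM summed over 8 neutrophil markers, against 28.1 to 289 CPM in the other 7 unirradiated libraries. Over the 18 libraries most reads of this list came from S100a9 (319002) and S100a8 (181120), with Mmp9 next at 38068. The sum therefore need not follow the number of neutrophils.

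Mt4 was lower in all 10 irradiated libraries than in all 8 unirradiated ones. Without UVB it was at 975 and 23.8 CPM in WT 10 and 11. In OPN-null 8, 9 and 10 it was at 117, 79.8 and 51.4 CPM. In K14-OPN 1, 2 and 11 it was at 121, 32.8 and 1385 CPM. The unirradiated values therefore spanned a wide range, with WT 10 and K14-OPN 11 far above the other 6. After UVB it was at 7.67, 8.50 and 1.00 CPM in WT 6, 7 and 8. In OPN-null 13, 14, 15 and 16 it was at 7.26, 3.58, 1.14 and 0.049 CPM, the last from 1 read. In K14-OPN 1, 2 and 3 it was at 0.507, 1.86 and 1.17 CPM. The highest irradiated library, WT 7, stayed below the lowest unirradiated library, WT 11. Such a separation in the lower direction was seen for 1.23% of all tested genes. A separation within each of the 3 genotypes, irradiated below unirradiated, was seen for 2.15%. Taken singly, the genotypes gave 13.7% in WT, 7.84% in OPN-null and 9.21% in K14-OPN.

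Averaged over the genotypes, Mt4 fell by 6.67 on the log2 scale (SE 0.973, 10 against 8 libraries, adjusted p = 0.000257 in edgeR's quasi-likelihood test). A gene is called here when its Benjamini-Hochberg adjusted p over all 18910 tested genes is below 0.05. The Mt4 fall corresponds to a 102-fold lower level. Without WT 10, K14-OPN 11 and OPN-null 9 it was -4.34, and without WT 10 or K14-OPN 11 alone it was -5.13 or -5.76, each still called. The 3 genotypes had log2 fold changes of -6.46 ± 1.73 in WT (SE, adjusted p = 0.122), -4.79 ± 1.39 in OPN-null (adjusted p = 0.0671) and -8.75 ± 1.87 in K14-OPN (adjusted p = 0.0324). Of the 3, the K14-OPN response passed the threshold. That call was lost without irradiated K14-OPN 1, 2 or 3 (adjusted p 0.11, 0.161 and 0.188), without unirradiated K14-OPN 11 (-6.02, adjusted p = 0.0785), and in a fit of the K14-OPN libraries alone (adjusted p = 0.18). In WT the value was -1.99 without WT 10. The mean over genotypes was -6.02 within the 7SK-rich libraries and -6.58 within the Lars2-rich libraries.

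**Figure D1:**
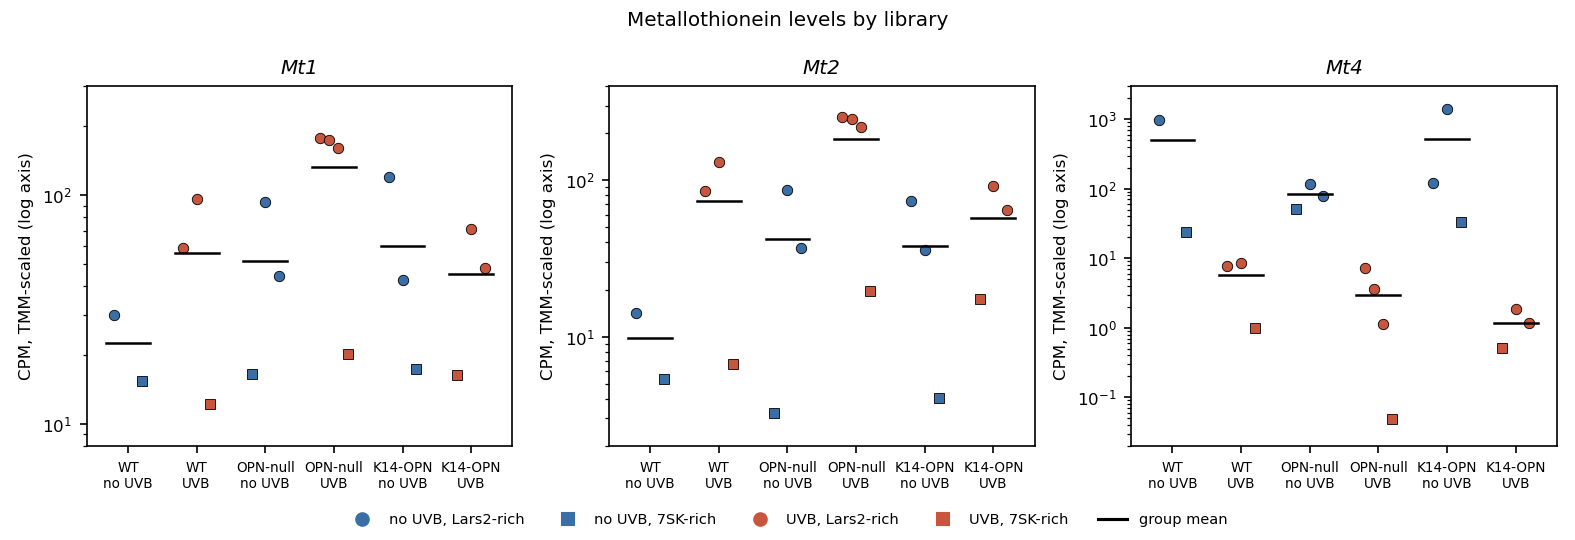
CPM of Mt1, Mt2 and Mt4 on log axes in each of the 18 libraries, by genotype and UVB. Points are libraries (circles Lars2-rich, squares 7SK-rich), bars are group means. All 10 irradiated Mt4 values lie below all 8 unirradiated ones, and in Mt1 and Mt2 the squares lie at the bottom of each group.

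Hair shaft markers were highest in unirradiated WT 10 and K14-OPN 11, where Mt4 was also highest. In the other libraries their sums overlapped between irradiated and unirradiated ones. The 11 hair shaft genes summed to 30.6 and 99700 CPM in unirradiated WT and 19.6 to 40.4 CPM in irradiated WT. They summed to 28.1 to 114200 CPM in unirradiated K14-OPN and 6.04 to 102 CPM in irradiated K14-OPN. In OPN-null the sums were 35.1 to 338 CPM without UVB and 20.8 to 85.6 CPM after it, with 8 to 11 of 11 genes detected. The 8 inner root sheath genes summed to 500 to 75480 CPM without UVB and to 119 to 704 CPM after it, and the 8 sebaceous gland genes to 252 to 1401 CPM and 37.6 to 275 CPM. Suprabasal keratinocyte markers, whose cells are the known site of Mt4, were lower after UVB in OPN-null and overlapped in WT and K14-OPN. In OPN-null they went from 16910 to 28030 CPM without UVB to 7819 to 15660 CPM after it. In K14-OPN they summed to 3964 to 31440 CPM without UVB and 8618 to 16480 CPM after it. In WT they summed to 5024 and 16340 CPM without UVB and 8828 to 28690 CPM after it. The sums of 3964 and 5024 CPM were those of K14-OPN 11 and WT 10, where Mt4 was highest. Among the 6 unirradiated libraries with low hair shaft sums, Mt4 was at 23.8 to 121 CPM, and every irradiated value was below these. Dermal fibroblast markers (10 genes) were lower after UVB in OPN-null and K14-OPN, and in WT the groups overlapped. They summed to 187 and 2933 CPM in unirradiated WT and to 85.8 to 336 CPM in irradiated WT. In OPN-null they went from 3712 to 4542 CPM without UVB to 18.6 to 592 CPM after it, and in K14-OPN from 573 to 3283 CPM to 92.8 to 211 CPM. Their lowest unirradiated sums, 187 and 573 CPM, were in WT 10 and K14-OPN 11, where Mt4 was highest. Basal keratinocyte markers went the other way, from 2201 to 9745 CPM without UVB to 8352 to 27040 CPM after it. The part of follicle, gland, dermal, basal and suprabasal cells in the Mt4 difference was not tested.

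**Figure D2:**
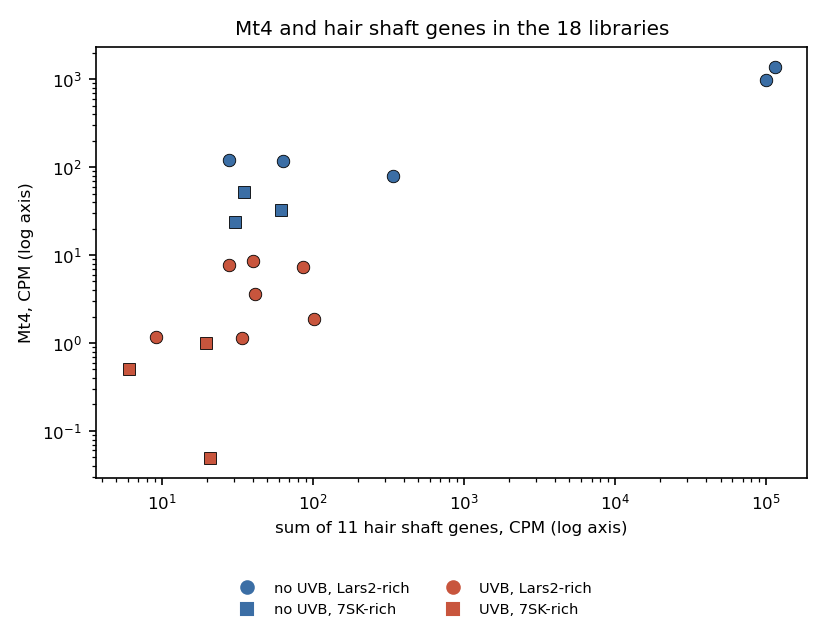
Mt4 CPM against the summed CPM of 11 hair shaft genes in the 18 libraries, both on log axes. The 2 libraries at the upper right are WT 10 and K14-OPN 11. Where hair shaft sums of the other libraries overlap, irradiated points lie below unirradiated points.

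Mt1 did not pass the threshold after UVB in any genotype. Without UVB it was at 29.9 and 15.4 CPM in WT 10 and 11, and after UVB at 58.7, 95.9 and 12.2 CPM in WT 6, 7 and 8. In OPN-null 8, 9 and 10 it was at 93.2, 44.2 and 16.5 CPM without UVB. In irradiated OPN-null 13, 14, 15 and 16 it was at 178, 174, 161 and 20.1 CPM. The 3 irradiated OPN-null libraries of the Lars2-rich kind held the highest values of all 18, and OPN-null 16 lay below every Lars2-rich library. K14-OPN 1, 2 and 11 without UVB were at 120, 17.4 and 42.7 CPM, and K14-OPN 1, 2 and 3 after UVB at 16.3, 71.1 and 48.0 CPM. The groups overlapped in each genotype. The log2 fold change averaged over genotypes was 0.76 ± 0.527 (SE, adjusted p = 0.331), from 1.30 ± 1.03 in WT, 1.38 ± 0.854 in OPN-null and -0.41 ± 0.876 in K14-OPN. The K14-OPN value turned to 0.59 without unirradiated K14-OPN 1, the unirradiated library high in neutrophil markers. The part of neutrophils, or of other cells with these transcripts, was not tested.

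Mt2 was at 14.2 and 5.36 CPM in unirradiated WT 10 and 11, and at 85.5, 130 and 6.65 CPM in irradiated WT 6, 7 and 8. In OPN-null 8, 9 and 10 without UVB it was at 86.2, 37.0 and 3.26 CPM. In OPN-null 13, 14, 15 and 16 after UVB it was at 252, 245, 219 and 19.6 CPM. As for Mt1, the Lars2-rich OPN-null libraries after UVB were the highest of all. K14-OPN 1, 2 and 11 without UVB were at 73.8, 4.04 and 36.0 CPM, and K14-OPN 1, 2 and 3 after UVB at 17.4, 91.2 and 64.4 CPM. Over both kinds of library, irradiated and unirradiated values of Mt2 overlapped in each genotype. Within either kind, irradiated WT and irradiated OPN-null libraries lay above the unirradiated ones of their genotype. The 7SK-rich part of this is 1 library against 1 in each genotype, and no share of all genes is set beside it. In K14-OPN, the Lars2-rich libraries overlapped.

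The Mt2 log2 fold change averaged over genotypes was 1.90 ± 0.725 (SE, adjusted p = 0.0711 in edgeR's quasi-likelihood test), which missed the threshold. It was 2.95 ± 1.47 in WT, 2.14 ± 1.16 in OPN-null and 0.61 ± 1.15 in K14-OPN, none of them called. The averaged value lay between 1.59 and 2.27 over 25 alternatives and was called in 8 of them. With library kind as a term it was 1.59 (adjusted p = 0.00104), in the Lars2-rich libraries alone 1.82 (adjusted p = 0.00237), and in DESeq2 1.79 (adjusted p = 0.0267). It also passed when irradiated OPN-null 16 or WT 8 was left out, or unirradiated OPN-null 8 or K14-OPN 1. Without the last, which was high in neutrophil markers, the averaged value was 2.21 (adjusted p = 0.0444) and the K14-OPN value 1.53. Within kinds, the mean over genotypes was 1.64 in the 7SK-rich and 1.84 in the Lars2-rich libraries, while that of Mt1 was -0.05 and 0.81.

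Both genes were lower in 7SK-rich than in Lars2-rich libraries of the same group. The log2 difference was -2.19 for Mt1 (SE 0.303, adjusted p = 3.85e-05) and -3.25 for Mt2 (SE 0.380, adjusted p = 8.93e-06), 6 against 12 libraries, by edgeR's quasi-likelihood test. Mt4 differed by -3.14 (adjusted p = 0.00231) and Mtf1 by -0.72 (adjusted p = 0.00664), and the other 5 tested members were not called. These 4 of 9 compare with 41.9% of all tested genes called between the kinds.

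The number of Mt2 reads per Mt1 read, which does not depend on library scaling, was 0.545 to 1.46 (median 1.35) in the 10 irradiated libraries. It was 0.198 to 0.925 (median 0.544) in the 8 unirradiated libraries. The ratio was above every unirradiated value in 9 of 10 irradiated libraries, and the exception was WT 8. In WT its mean was 0.411 ± 0.0903 (SD, n = 2) in unirradiated and 1.12 ± 0.500 (SD, n = 3) in irradiated libraries. In OPN-null it was 0.654 ± 0.397 (n = 3) and 1.29 ± 0.213 (n = 4). In K14-OPN it was 0.563 ± 0.308 (n = 3) and 1.23 ± 0.144 (n = 3). The 7SK-rich library had the lowest ratio of its group in all 6 groups, and in each genotype the irradiated 7SK-rich library was above the unirradiated one. The ratio was examined after both genes' values were seen and is given without a test. Of the exon bases of Mt2, 73.5% lie within exons of the antisense gene Gm45774, and genes lying wholly within exons of an opposite-strand gene were at 0 in 383 of 386 cases. Reads of Mt2 may thus have been set aside as ambiguous, so the ratio does not give the relative amounts of the transcripts.

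**Figure D3:**
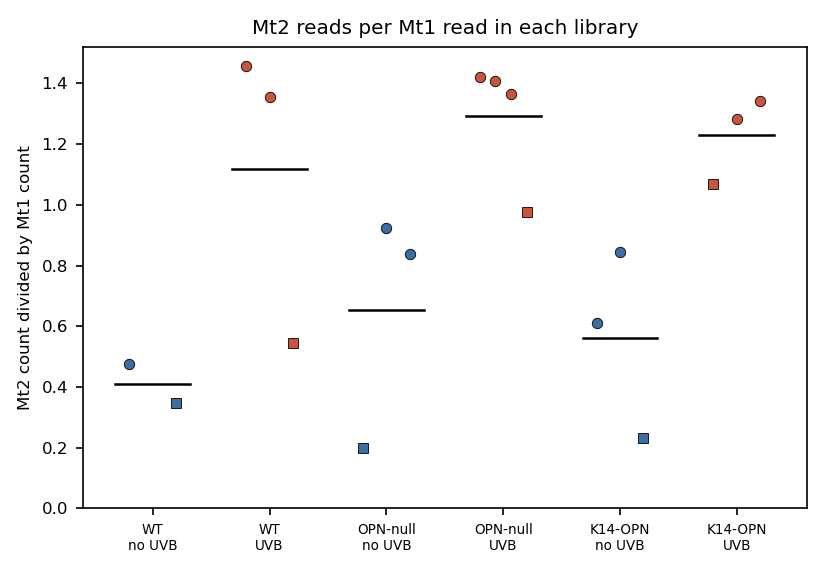
Mt2 counts divided by Mt1 counts in each of the 18 libraries, on a linear axis from 0. Circles are Lars2-rich and squares 7SK-rich libraries, blue without UVB and red after it, with group means as bars. Apart from the square of irradiated WT (0.545), red points lie above all blue points.

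Mtf1 (chromosome 4, 124802104 to 124849800, plus strand), the zinc-sensing transcription factor, was at 31.5 to 88.4 CPM (median 58.9) without UVB and at 38.8 to 149 CPM (median 57.3) after it. The 3 values above all unirradiated ones were OPN-null 13, 14 and 15. In irradiated K14-OPN, all 3 libraries lay between 38.8 and 42.2 CPM. The log2 fold change averaged over genotypes was 0.23 ± 0.258 (SE, adjusted p = 0.58), and Mtf1 was not called in any genotype. After UVB, K14-OPN was 1.38 below OPN-null on the log2 scale, with an unadjusted p of 0.00449 that did not survive adjustment over all genes.

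The exporter Slc30a1 (chromosome 1, 191906767 to 191913247, plus strand) was listed at 0 in all 18 libraries. Genes used by every cell, such as Uqcrc1, Atp6v1c1 and Ranbp1, were also listed at 0, so no level is drawn from it.

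Slc39a14, the importer ZIP14 known for its induction in the inflamed liver, was the importer of the list that rose after UVB. It lies on chromosome 14 at 70303469 to 70351425 on the minus strand. It was at 29.1 and 5.86 CPM in unirradiated WT 10 and 11, and at 17.3, 19.3 and 29.9 CPM in irradiated WT 6, 7 and 8. In OPN-null 8, 9 and 10 without UVB it was at 8.36, 4.98 and 4.74 CPM. In OPN-null 13, 14, 15 and 16 after UVB it was at 18.4, 18.5, 17.0 and 40.5 CPM. In K14-OPN 1, 2 and 11 without UVB it was at 13.0, 4.96 and 17.6 CPM, and in K14-OPN 1, 2 and 3 after UVB at 32.4, 19.7 and 19.4 CPM. Irradiated libraries lay above unirradiated ones in OPN-null and in K14-OPN, and in WT the groups overlapped through WT 10. Non-overlap in the higher direction was seen for 11.3% of tested genes in OPN-null and 11.5% in K14-OPN.

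Averaged over genotypes, Slc39a14 rose by 1.12 on the log2 scale (SE 0.355, adjusted p = 0.033, edgeR's quasi-likelihood test). It was 2.68 within the 7SK-rich libraries, and in a fit of the Lars2-rich libraries alone it was 0.38 and not called (adjusted p = 0.3). The difference between the kinds was not tested. The 7SK-rich values were 4.74 to 5.86 CPM without UVB and 29.9 to 40.5 CPM after it. The call was also lost when any of 5 of the 7SK-rich libraries was left out, with adjusted p from 0.0509 to 0.113 and a lowest value of 0.88 without unirradiated WT 11. The genotypes had log2 fold changes of 0.37 ± 0.657 in WT, 1.98 ± 0.594 in OPN-null (adjusted p = 0.075) and 1.01 ± 0.584 in K14-OPN, none of them called. In WT it was -0.68 in the Lars2-rich libraries and -0.38 without unirradiated WT 11.

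Slc39a1 (chromosome 3, 90248172 to 90253612, plus strand) encodes ZIP1, a broadly expressed importer of the plasma membrane. It was at 14.2 to 66.5 CPM (median 31.9) without UVB and in the narrower range of 39.0 to 60.5 CPM (median 52.7) after it. Slc39a6 (chromosome 18, 24579881 to 24603817, minus strand) encodes ZIP6, which pairs with ZIP10. It was at 42.0 to 127 CPM (median 82.0) without UVB and 89.3 to 135 CPM (median 103) after it. In OPN-null, irradiated libraries lay above unirradiated ones for both genes, from 51.2 CPM upward against at most 33.0 CPM for Slc39a1, and from 94.7 CPM upward against at most 76.1 CPM for Slc39a6. The share of all tested genes with such a separation in OPN-null is given above with Slc39a14. The averaged log2 fold changes were 0.57 ± 0.230 for Slc39a1 (adjusted p = 0.0873) and 0.48 ± 0.207 for Slc39a6 (adjusted p = 0.111). In OPN-null they were 1.28 ± 0.375 (adjusted p = 0.0698) and 0.96 ± 0.335 (adjusted p = 0.117), and neither was called.

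Slc39a10 (chromosome 1, 46807544 to 46892852, minus strand), encoding ZIP10, was at 3.12 to 57.6 CPM without UVB and 7.38 to 29.4 CPM after it. The highest values were those of unirradiated K14-OPN 11 and WT 10, at 57.6 and 47.8 CPM, the libraries rich in hair shaft genes. Its averaged log2 fold change of -0.28 ± 0.450 (adjusted p = 0.708) was 0.25 without K14-OPN 11, 0.12 without WT 10, and 0.48 without both and OPN-null 9. Slc39a4 (chromosome 15, 76612383 to 76617384, minus strand), the intestinal importer mutated in the human zinc-deficiency dermatosis acrodermatitis enteropathica, had 0 to 48 counts per library and was listed at 0 in 5 of 18. Its averaged log2 fold change was 0.50 ± 0.879 (adjusted p = 0.73). It lay between 0.18 and 3.71 over 25 alternatives, called in 0 of them, and was 2.11 without unirradiated OPN-null 10, 2.21 without unirradiated WT 11 and 3.71 (SE 2.30) in the Lars2-rich libraries alone.

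**Figure D4:**
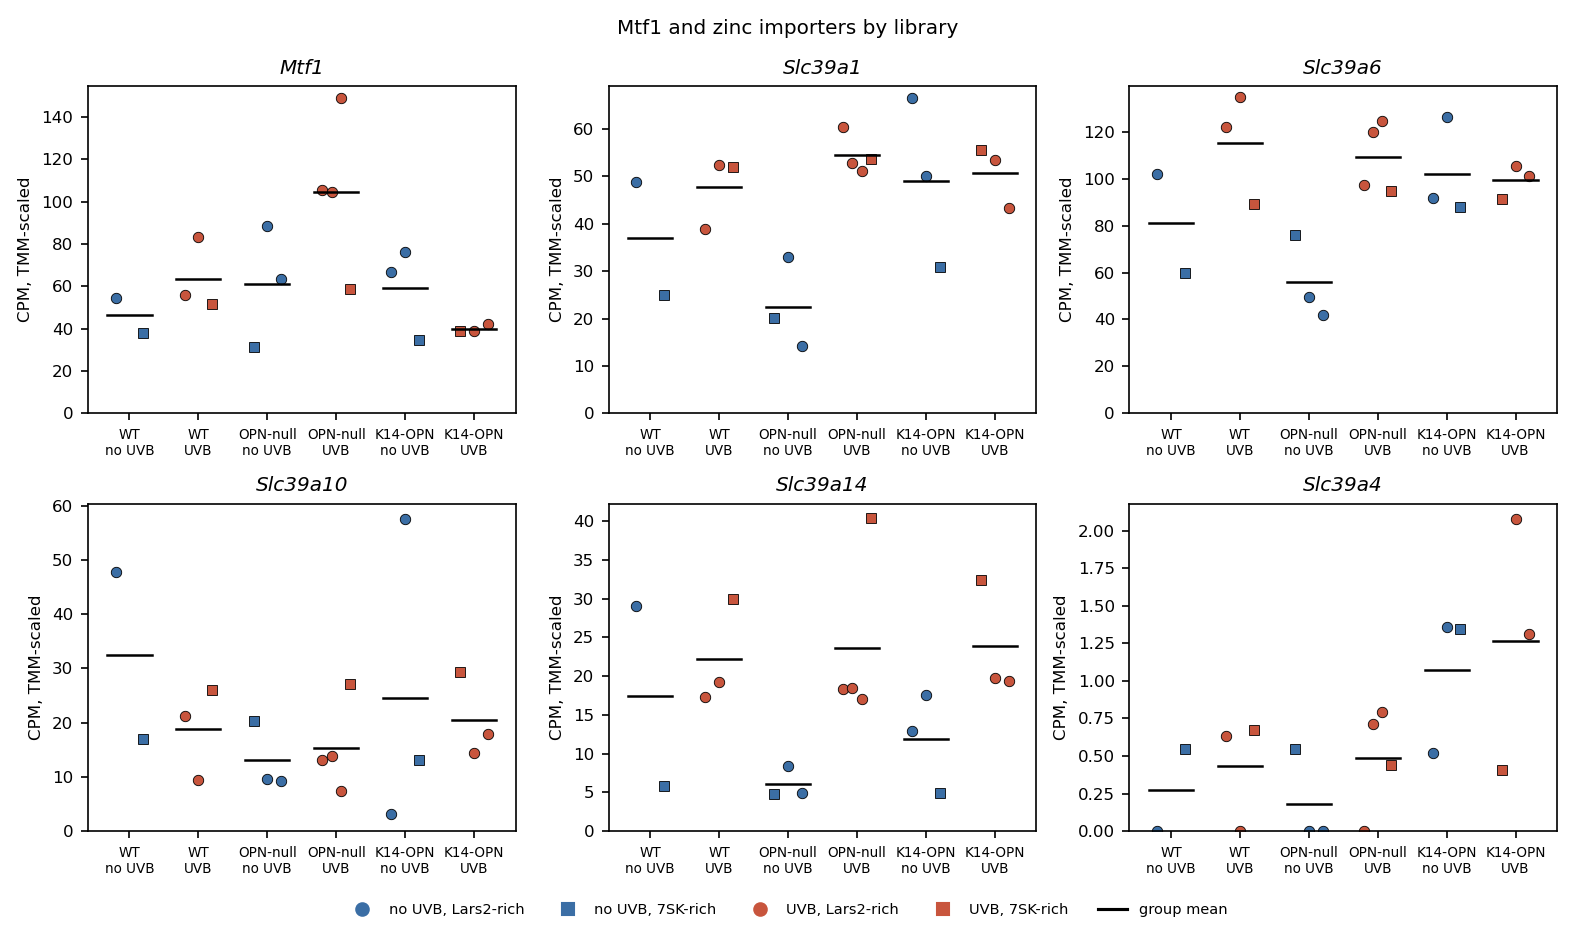
CPM of Mtf1 and 5 zinc importers in each of the 18 libraries, on linear axes from 0. Circles are Lars2-rich and squares 7SK-rich libraries, with group means as bars. The irradiated squares of Slc39a14 lie at 29.9 to 40.5 CPM and the unirradiated ones at 4.74 to 5.86 CPM.

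Of the 9 tested members, 2 were called in the averaged UVB response, Mt4 lower and Slc39a14 higher, where 21.4% of all tested genes were called, 10% higher and 11.4% lower. The part of the higher basal keratinocyte markers in the Slc39a14 difference was not tested. The median log2 fold change of the members was 0.50, against -0.11 over all tested genes. In WT 0 of 9 were called by edgeR (0.0952% of all genes), 1 had an unadjusted p under 0.05 (13% of all genes) and DESeq2 called 1 (4.67% of all genes). In OPN-null 0 of 9 were called (3.41% of all genes), 4 had an unadjusted p under 0.05 (21% of all genes) and DESeq2 called 4 (12.4% of all genes). In K14-OPN 1 of 9, Mt4, was called (1.06% of all genes), and DESeq2 also called Mt4 alone (7.25% of all genes).

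**Figure D5:**
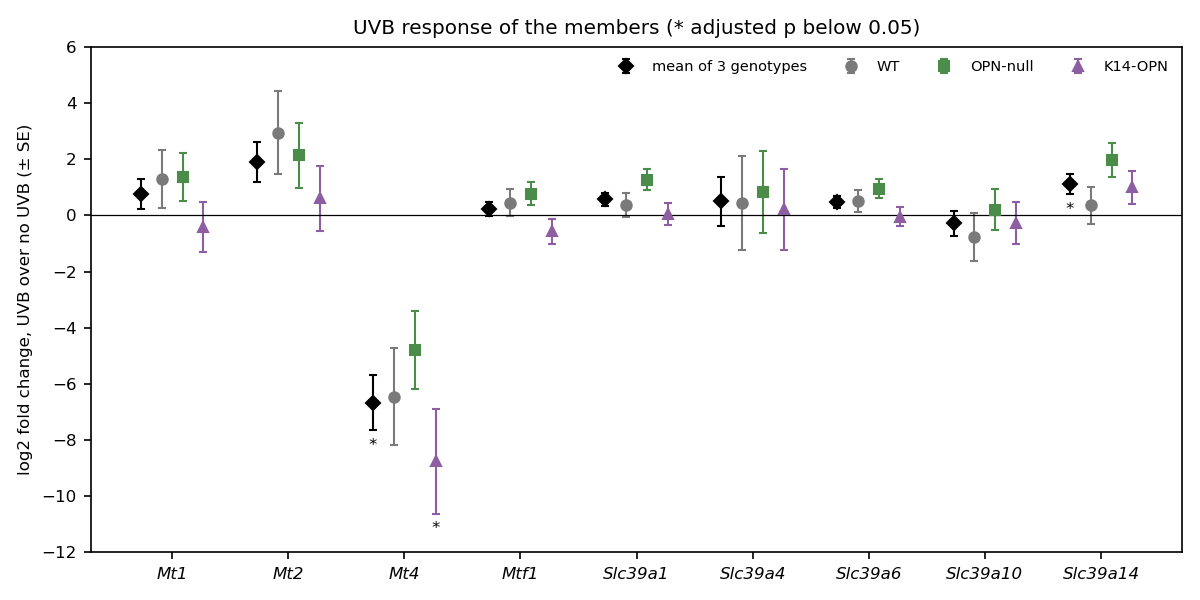
Log2 fold change of irradiated over unirradiated libraries with its standard error for the 9 tested members, averaged over genotypes and in each genotype, on a linear axis. Asterisks mark adjusted p below 0.05: Mt4 averaged and in K14-OPN, and Slc39a14 averaged.

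The study compared WT and K14-OPN with OPN-null after UVB. In this comparison edgeR called 0 of 9 members for WT against OPN-null (0.00529% of all genes), K14-OPN against OPN-null (0%) and K14-OPN against WT (0%). At an unadjusted p under 0.05 there were 0, 1 and 0 members, the 1 being Mtf1, against 1.52%, 3.37% and 2.06% of all genes, and DESeq2 called 0 in each (0.0106%, 0.0212% and 0.0106% of all genes). Without UVB, 0 of 9 members were called in any pair of genotypes, as were 0% of all genes. DESeq2 also called 0 members, and 0.037% of all genes between WT and OPN-null, 0.0106% between K14-OPN and OPN-null, and 0.0635% between K14-OPN and WT. At an unadjusted p under 0.05 there was 1 for WT against OPN-null, Slc39a14 (log2 difference 1.52), where 4.48% of all genes passed. There were 2 for K14-OPN against OPN-null (5.91% of all genes), Slc39a1 (log2 difference 1.12) and Slc39a6 (0.86), and 0 for K14-OPN against WT (1.95% of all genes). The UVB responses of WT and of K14-OPN were also set against that of OPN-null, and 0 of 9 members and 0% of all genes differed in edgeR, with DESeq2 at 0 members (0.0212% of all genes for WT and 0.0106% for K14-OPN). For K14-OPN, 2 members, Mtf1 and Slc39a1, had an unadjusted p under 0.05 (3.86% of all genes), and for WT 0 (2.58% of all genes). The comparisons with OPN-null share its libraries, and these tests do not show that the genotypes were alike.

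Levels between genes were compared as CPM per kilobase of annotated exon, and the order of the metallothioneins differed with UVB. Without UVB the group mean of Mt4 was the highest, at 1254 ± 1689 in WT (SD, n = 2), 208 ± 83.2 in OPN-null (n = 3) and 1289 ± 1900 in K14-OPN (n = 3). Mt2 was at 16.6, 71.7 and 64.5 in these groups and Mt1 at 18.2, 41.2 and 48.3, within each other's spread. After UVB the order of the group means was Mt2, Mt1 and Mt4 in each genotype. Mt2 was then at 126 ± 106 in WT (n = 3), 313 ± 188 in OPN-null (n = 4) and 98.1 ± 63.5 in K14-OPN (n = 3). Mt1 was at 44.6 ± 33.7, 107 ± 60.7 and 36.2 ± 22.05, and Mt4 at 14.4, 7.56 and 2.97. The whole span of Mt1 is annotated as exon, 1246 bases in 1 block, against 588 bases in 3 blocks for Mt2. Mt2 reads per Mt1 read were 0.545 to 1.46 after UVB. The order of Mt2 and Mt1 thus rests in part on these lengths. Over all 18 libraries the means were 393 for Mt4, 131 for Mt2 and 54.1 for Mt1, but the medians were 20.3, 86.2 and 37.0, since the Mt4 mean rested on unirradiated WT 10 and K14-OPN 11. Counted over the 156 exon bases of Mt2 that no other gene shares, Mt2 had a mean of 495 over the 18 libraries, above Mt4. On that length it was also above Mt4 in unirradiated OPN-null, at 270 against 208. Means over the 18 libraries are given for the rest. Slc39a6 at 23.4 ± 6.42 and Slc39a1 at 18.9 ± 6.12 also lay within each other's spread. Mtf1 (7.37), Slc39a10 (3.26), Slc39a14 (1.69) and Slc39a4 (0.203) came below. With the longest transcript as the length, Slc39a14 was at 3.49 and Slc39a10 at 3.61.

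The genes most like Mt4 across the 18 libraries, by Pearson correlation of log2 CPM among 10393 genes, were Fgf22 (r = 0.953), Calml3 (0.949), Pdcd4 (0.946), Nudt13 (0.942) and Gjb5 (0.941). In the 12 Lars2-rich libraries the same genes had r from 0.929 to 0.961. For the mean of Mt1 and Mt2 they were Klk7 (0.983), Ndufa4 (0.967), Ubxn4 (0.963), Nmt1 (0.957) and Arpc2 (0.952), with r from 0.866 to 0.97 in the Lars2-rich libraries. These correlations describe libraries that share UVB, kind and depth.

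Among the other zinc transporters, 4 of 8 tested ZIP genes were called in the averaged UVB response, and 0 of 6 tested ZnT genes, beside 21.4% of all tested genes. Mt3, a metallothionein known from brain, had 7 reads in all and was not tested. Slc39a2, whose product ZIP2 is known from differentiating keratinocytes, rose by 1.38 on the log2 scale (SE 0.280, adjusted p = 0.00268), from 2.85 to 14.4 CPM without UVB to 12.6 to 27.1 CPM after it. Slc39a13, encoding ZIP13 of the Golgi, rose by 1.37 (SE 0.368, adjusted p = 0.0147), from a median of 6.36 to 15.8 CPM. For both, 8 of 10 irradiated libraries lay above all unirradiated ones. Slc39a8, encoding the zinc and manganese importer ZIP8, fell by 2.17 (SE 0.384, adjusted p = 0.00104), from a median of 59.3 to 15.8 CPM. Slc39a11 fell by 1.44 (SE 0.374, adjusted p = 0.0119), from a median of 9.30 to 3.37 CPM. Irradiated libraries below all unirradiated ones numbered 6 of 10 for Slc39a8 and 7 of 10 for Slc39a11. Slc39a8 was highest in unirradiated K14-OPN 11 and WT 10, at 213 and 177 CPM, the libraries rich in hair shaft genes, against 17.8 to 64.2 CPM in the other 6. Without these and OPN-null 9 it fell by 1.54 and was called (adjusted p = 0.00116). Slc39a11 was highest in WT 10 at 22.4 CPM, against 3.52 to 11.97 CPM in the other 7 unirradiated libraries. Its change was -1.12 without the 3 libraries (adjusted p = 0.0844) and also missed the threshold without WT 10 alone. Slc39a2 and Slc39a13 were 1.57 and 1.23 without the 3 libraries, both called. Of 11 tested copper-handling genes, 1 was called, the metalloreductase Steap4, which rose by 1.39 (adjusted p = 0.00814) and missed the threshold in the Lars2-rich libraries alone (1.32, adjusted p = 0.0515). Dermal fibroblast markers also fell, at 187 to 4542 CPM summed without UVB and 18.6 to 592 CPM after it. Their lowest unirradiated sums, 187 and 573 CPM, were in WT 10 and K14-OPN 11, where Slc39a8 was highest. The part of hair follicle and dermal cells was not tested.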

How the data were processed

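The authors deposited 1 table of raw counts (reads per gene, whole numbers) for the 18 libraries. HTSeq 0.11.3, STAR 2.7.5a, Trim Galore 0.6.5, bcl2fastq 2.18.0.12 and GRCm38 are named in the submitters' processing notes, with no role stated. The annotation release and strand setting behind the table are not stated in the labels or notes. Of 56246 genes, 55230 matched GENCODE M21 by identifier. The 5 summary lines of the counting program stayed out of library sizes. They held 20.75 to 50.36% of reads outside genes, 2.507 to 13.87% ambiguous reads and 12.1 to 29.25% reads with several alignments. Of 386 genes lying within exons of an opposite-strand gene, 383 were at 0. Reads carry no molecular identifiers.

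Tests used R 4.3.3 and edgeR 4.0.16 (quasi-likelihood, 6 group means, all 18 libraries, TMM, filterByExpr with a minimum count of 10 and total of 15), with 12 two-sided contrasts and Benjamini-Hochberg adjustment over 18910 genes. A gene was called below 0.05. Fold changes are log2 with a prior count of 0.125, and SE is the fold change over the root of F. The biological coefficient of variation was 0.816. Every pair of libraries of the same group differed by more than sampling noise. The alternatives were RLE scaling, DESeq2 1.42.0, no filter, the compared groups only, library kind as a model term, only Lars2-rich libraries, without 3 libraries that stood apart, a replicate block and each library left out. Levels per length were also computed with the longest transcript and with unscaled library sizes. Exon bases unshared by other genes were added after seeing the data, as were the Mt2 to Mt1 ratio and the genes quoted at 0. The members, lists and rule for named genes (all members, called genes of the lists, 5 most correlated genes) were chosen with earlier results of these data known.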

Additional observations from a re-analysis of the deposited data

Results flagged for a closer look

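In the 4 irradiated OPN-null libraries, the 7SK-rich library OPN-null 16 lay far from the other 3 for 3 members. The gap to the nearest library was 0.954 of the whole range for Mt1 (log2 CPM 4.34, next 7.33), 0.946 for Mt2 (4.30, next 7.78) and 0.904 for Slc39a14 (5.34, next 4.22). Mt1 and Mt2 were low there and Slc39a14 high. Chance gives a gap of the size used for this list in about 1 of 20 groups. The 3 gaps come from the same library and are not independent. The part of library kind in them was not tested.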

How the results depend on the processing

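Mt4 was called in the averaged UVB response under all 25 alternatives, from -6.98 to -4.34. Slc39a14 was called in 19 of 25. The averaged response called 2 members, and 4 with library kind as a term (32.4% of all genes). It called 1 to 4 when a library other than unirradiated WT 10 or 11 was left out (15.5% to 23.9% of all genes). Members called in WT went from 0 to 1 with no filter, DESeq2 or library kind (1.82%, 4.67% and 3.73% of all genes). In OPN-null they went from 0 to 1 with no filter, the compared groups only, or without the 3 libraries that stood apart (3.44%, 6.02% and 3.57% of all genes), to 4 in DESeq2 (12.4%) and in the Lars2-rich libraries (10.6%), and to 5 with library kind (13.7%). In K14-OPN 1 became 0 in the compared groups only (0%) and 0 to 1 when a library was left out (0.0546% to 4.1% of all genes). Sign changed for Slc39a10 averaged (0.477 without the 3 libraries, 0.245 without K14-OPN 11, 0.115 without WT 10, down to -0.458 over left-out libraries), Slc39a14 in WT (-0.679 in Lars2-rich libraries, -0.379 without WT 11, up to 1.99 without WT 10) and Mt1 in K14-OPN (0.592 without unirradiated K14-OPN 1, down to -0.907 over left-out libraries). The cause was not tested. Mt2 per kilobase moved from 131 to 495 with unshared bases, by construction. Slc39a14 per kilobase moved from 1.69 to 3.49 with the longest transcript, and Mt4 was at 237 in place of 393 with unscaled library sizes. With a replicate block for K14-OPN numbers 1 and 2, members called stayed at 2 averaged, 1 in K14-OPN and 0 for the difference of responses, and calls over all genes went from 200 to 130 in K14-OPN and from 4054 to 3551 averaged. Same-numbered libraries had deviations correlated at -0.451 and -0.578. Each such pair joined a 7SK-rich with a Lars2-rich library, so these values cannot decide whether the numbers pair them.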

Other observations

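Other inducers of metallothionein genes were represented by lists of their target genes. In the averaged UVB response, 4 of 14 glucocorticoid-induced genes fell and 1 rose, where 21.4% of all tested genes were called, 10% higher and 11.4% lower. Those that fell were Zbtb16 (log2 change -3.66, adjusted p = 0.00358), Tsc22d3 (-2.22, adjusted p = 0.000596), Fkbp5 (-1.77) and Klf9 (-1.09). The one that rose was Lcn2 (3.88, adjusted p = 0.00661), which is also in the acute-phase list. Tsc22d3, encoding the glucocorticoid-induced leucine zipper GILZ, went from a median of 82.2 CPM in 8 unirradiated to 13.9 CPM in 10 irradiated libraries, and 8 of the 10 lay below all unirradiated ones.

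Of 12 oxidative stress genes, 3 rose and 2 fell. Gsta4, a glutathione transferase, rose by 5.17 (adjusted p = 0.000239), Nqo1, a quinone reductase, by 2.76 and Nfe2l2, which encodes NRF2, by 2.26, while Txnrd1 (-1.49) and Hmox1 (-0.80) fell. Of 10 acute-phase and STAT3 genes, 7 rose and 1 fell, and the median was 1.85 against -0.11 over all tested genes. Neutrophil markers (8 genes) were also higher in most irradiated libraries, at 28.1 to 146 CPM summed without UVB and 208 to 1854 CPM after it in WT. They were at 172 to 289 and 325 to 6627 CPM in OPN-null, and at 32.01 to 9185 and 1120 to 8830 CPM in K14-OPN. Their part in these lists was not tested. Bcl3, an inhibitor-family regulator of NF-kappaB, rose by 2.75 (adjusted p = 0.000116, edgeR's quasi-likelihood test). It was at 2.20 to 21.8 CPM in the 8 unirradiated and 35.9 to 71.7 CPM in the 10 irradiated libraries. Stat3, Osmr and Il4ra of the same list were also higher in all irradiated than in all unirradiated libraries. The share of all tested genes with such a separation is not given here. Socs3, the feedback inhibitor of STAT3 signalling, rose by 1.79 (adjusted p = 0.0179), and Il6ra fell by 1.01 (adjusted p = 0.0245). Without the 3 libraries that stood apart, 5 of the 9 acute-phase genes outside the glucocorticoid list rose, and Hmox1 (adjusted p = 0.114) missed the threshold. In the Lars2-rich libraries alone, Klf9, Il6ra and Socs3 missed it (adjusted p = 0.284, 0.347 and 0.0553). No relation of these lists to the metallothioneins was tested.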
